A study of Mus musculus with 16 samples.

Results

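The hippocampus is built from subfields whose principal neurons differ in gene expression, and 10 genes that are used as subfield markers were followed here in mouse hippocampal RNA. They were chosen by gene name, 4 for the dentate gyrus (Prox1, Dsp, C1ql2 and Calb1), 3 for CA1 (Wfs1, Fibcd1 and Man1a) and 3 for CA2 and CA3 (Amigo2, Pcp4 and Bok), out of 18287 named genes. The 10 genes held 20 of the 80137 transcript rows. All 10 were present.

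RNA was sequenced from 16 male C57BL/6 mice aged 3 months, 4 per group, with both hippocampi of a mouse pooled into 1 library. Homecage (HC) mice stayed in their cages without handling, shock or test. Control (Ctrl) mice were put into the shuttle box on the first day with no shock given, and went through the test session of 30 escapable shock trials (0.4 mA) on the next, so that Ctrl vs. HC covers handling, the box and the test together. The mice of the other groups received 180 inescapable foot shocks (0.4 mA) and the same test 24 h later, and were then split by their escape failures and latency into the LH group (learned helpless) and the NLH group (resilient, non-learned helpless). All were killed 3 h after the test. LH and NLH were therefore defined by behaviour after the same induction session. A shock of the test ended when a mouse escaped, so mice that failed received more shock in the test, and no group with induction went without the test. Levels are FPKM, a fragment count scaled to transcript length and to the depth of the library, and a gene's level is the sum over its named rows. A difference is given as log2(FPKM + 0.1) of the first group minus the second, with its standard error (SE).

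Information in the hippocampus passes from dentate granule cells by mossy fibres to CA3, and from CA3 to CA1, with CA2 between them. Granule cells, which are born throughout life in the subgranular zone, carry the transcription factor Prox1, and the pyramidal cells of CA1, CA2 and CA3 each carry sets of genes that the neighbouring field lacks. In RNA of whole hippocampus a lower level of such a marker cannot be told apart as fewer cells of that field or less RNA per cell, and the assignment of a gene to a field could not be checked in these libraries.

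The upstream sequences of 4 members are shown because these genes form the pairs with the lowest correlation (C1ql2 with Pcp4) and the highest (Fibcd1 with Amigo2) over the 16 mice on the deposited scale. Each is the 250 bases before the transcription start, from RefSeq promoters on GRCm38.p6, 5′ to 3′ on the gene's strand. Capitals mark the GC box GGGCGG, searched on both strands together with the E-boxes CAGATG and CAGCTG, which overlapped no GC box. Such a window was found for 9 of the 10 members.
C1ql2, chr1:120340332-120340581, plus strand: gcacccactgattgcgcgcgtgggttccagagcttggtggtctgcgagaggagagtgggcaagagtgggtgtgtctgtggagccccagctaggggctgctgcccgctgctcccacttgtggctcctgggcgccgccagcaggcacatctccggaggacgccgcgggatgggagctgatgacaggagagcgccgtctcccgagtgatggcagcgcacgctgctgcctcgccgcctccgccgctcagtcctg
Pcp4, chr16:96467356-96467605, plus strand: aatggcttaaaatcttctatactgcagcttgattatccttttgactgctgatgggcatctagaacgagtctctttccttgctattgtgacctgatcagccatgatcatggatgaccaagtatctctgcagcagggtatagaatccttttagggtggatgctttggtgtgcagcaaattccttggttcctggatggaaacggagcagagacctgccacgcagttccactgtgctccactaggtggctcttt
Fibcd1, chr2:31846006-31846255, minus strand: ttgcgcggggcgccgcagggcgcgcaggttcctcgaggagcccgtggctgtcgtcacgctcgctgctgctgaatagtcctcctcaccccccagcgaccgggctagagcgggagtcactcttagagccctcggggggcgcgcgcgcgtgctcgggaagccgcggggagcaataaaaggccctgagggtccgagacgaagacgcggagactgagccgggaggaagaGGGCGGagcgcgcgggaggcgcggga
Amigo2, chr15:97247288-97247537, minus strand: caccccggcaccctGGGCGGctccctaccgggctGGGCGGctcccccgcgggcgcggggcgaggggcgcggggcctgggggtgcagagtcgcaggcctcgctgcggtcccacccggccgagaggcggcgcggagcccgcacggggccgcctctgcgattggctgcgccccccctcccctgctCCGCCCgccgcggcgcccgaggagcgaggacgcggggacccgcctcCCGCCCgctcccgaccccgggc
The Pcp4 window had a GC content of 46.8% with 3 CpG dinucleotides, against a median of 52.4% and 6 over 32851 promoter windows of the same length. The other windows shown were richer in GC, at 68.8% with 20 CpG in C1ql2, 71.6% with 34 in Fibcd1 and 84% with 38 in Amigo2. The GC box was matched once in Fibcd1, 4 times in Amigo2 and 0 times in C1ql2 and Pcp4, and 32.7% of all windows held it. None of the 4 held either E-box, which 14.4% (CAGATG) and 13.0% (CAGCTG) of all windows held. These matches are descriptions of letters only.

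By mean level over the 16 mice the members ranked Pcp4 (15.7 FPKM), Calb1 (13.2), Man1a (9.66), Prox1 (9.14), Fibcd1 (8.46), Bok (6.16), C1ql2 (3.85), Dsp (3.19), Amigo2 (2.22) and Wfs1 (1.58). Neighbours in this order did not differ beyond their spread for 4 of the 9 steps. Pcp4 exceeded Calb1 in 12 of 16 mice, by 2.58 ± 4.35 FPKM (SD of the difference). Man1a exceeded Prox1 in 9 of 16 mice, by 0.522 ± 2.12. Prox1 exceeded Fibcd1 in 12 of 16, by 0.683 ± 1.27, and Amigo2 exceeded Wfs1 in 12 of 16, by 0.643 ± 1.09. The last step holds for named rows only, since over all rows of the loci Wfs1 averaged 8.02 FPKM against 2.85 for Amigo2 and was the higher in 16 of 16 mice. The clearest steps were from Fibcd1 to Bok and from Bok to C1ql2, each held in 16 of 16 mice.

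**Figure D1:**
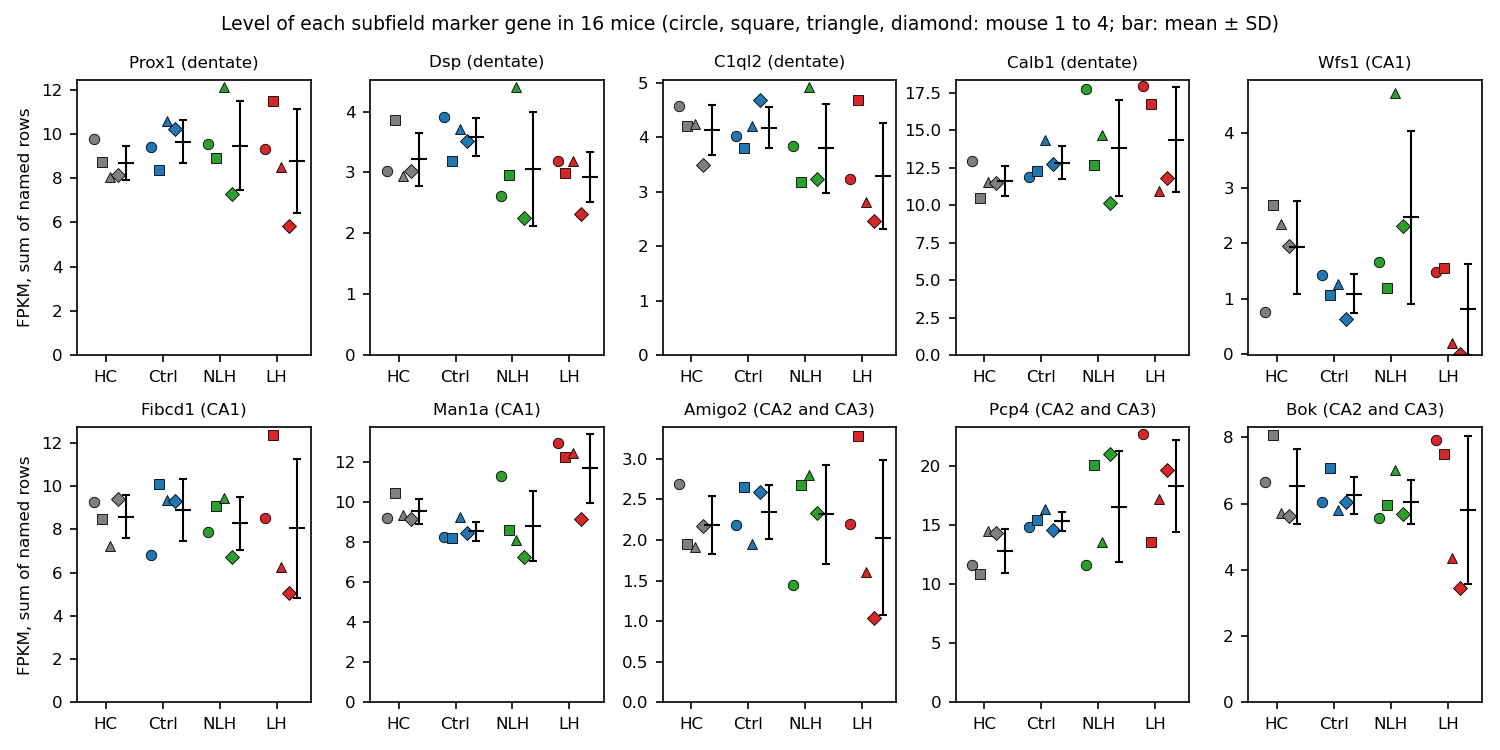
FPKM of each member (vertical axis, linear, from 0) in every mouse of the HC, Ctrl, NLH and LH groups (horizontal axis), with the group mean ± SD in black. The HC and Ctrl mice lie close together in most panels, and both the NLH and the LH mice are more scattered in most. Mouse 4 of LH (red diamond) is the lowest of all 16 in 6 of the 10 panels.

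Depth and library scale bear on the precision of these levels. Depth was estimated from the FPKM steps. Per library, 53.7% to 63.6% of the loci used lay within 0.1 of a whole fragment, where chance gives 20%. The estimates are therefore rough, and ran from 20170000 to 38190000 fragments per library. The lowest belonged to LH mouse 4, which also had the lowest median-ratio size factor (0.817, against 0.925 to 1.2 in the libraries other than LH 3 and 4) and the most rows at 0 (15504, against 4872 to 7352 in those). In terms of estimated fragments, the main row of Prox1 rested on a median of 1798 per mouse, Calb1 on 1547 and Fibcd1 on 1298, whereas the short transcript of Pcp4 rested on 198, C1ql2 on 213 and Bok on 238. Counting error alone is then about 7.10% at Pcp4 and 2.36% at Prox1. The coefficient of variation within a group ran from 5.11% to 28.2% for Pcp4 and from 8.94% to 26.7% for Prox1.

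No member passed the test in any comparison of groups. Limma was fitted to all 18287 genes over the 4 groups with Benjamini-Hochberg adjustment at 0.05, and 0 of 10 members were called in LH vs. Ctrl (0% of all genes called), LH vs. NLH (0.0109%), NLH vs. Ctrl (0.00547%), Ctrl vs. HC (0%) or over the 4 groups together (0.0766%). The smallest adjusted p of a member was 0.216 in LH vs. Ctrl, 0.489 in LH vs. NLH, 0.982 in NLH vs. Ctrl, 1 in Ctrl vs. HC and 0.375 over the 4 groups. At an unadjusted p under 0.05 the counts were 1 of 10 in LH vs. Ctrl (11.5% of all genes), 2 in LH vs. NLH (7.54%), 0 in NLH vs. Ctrl (5.59%), 0 in Ctrl vs. HC (2.7%) and 2 over the 4 groups (9.96%). Those members were Man1a in LH vs. Ctrl, and Man1a and Wfs1 in LH vs. NLH and over the 4 groups.

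The median log2 difference of the 10 members was -0.20 in LH vs. Ctrl beside 0 for all genes, -0.12 in LH vs. NLH beside -0.06, -0.05 in NLH vs. Ctrl beside 0.06, and 0.07 in Ctrl vs. HC beside 0.02. Of the 7 members with a negative value in LH vs. Ctrl, 5 depended on LH mice 3 and 4 for their sign. Without both mice the differences of Amigo2, Bok, Fibcd1, Prox1 and Wfs1 became 0.20, 0.30, 0.22, 0.11 and 0.49. Dsp and C1ql2 kept a negative sign without them, at -0.20 (from -0.29) and -0.096 (from -0.37).

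**Figure D2:**
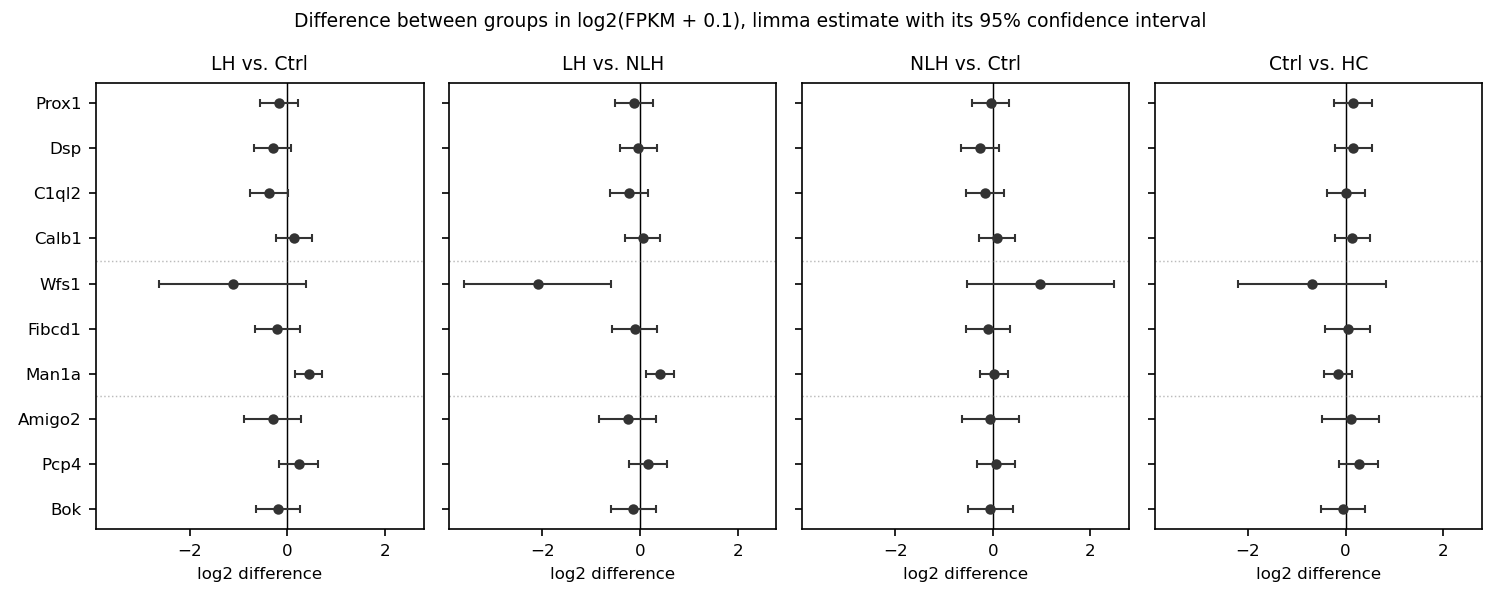
Log2 difference (horizontal axis) of each member (vertical axis, dentate at the top, then CA1, then CA2 and CA3) in the 4 comparisons, as the limma estimate with its 95% confidence interval. Man1a is the one member whose interval lies above 0 in both LH comparisons, Wfs1 lies below 0 in LH vs. NLH with an interval from -3.61 to -0.58, and all other intervals include 0.

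Prox1, the transcription factor that sets and keeps granule cell identity, lies at chr1:190118035-190170714 on the minus strand (GRCm38). The HC mice were at 9.74, 8.73, 8.06 and 8.15 FPKM, the Ctrl mice at 9.41, 8.38, 10.6 and 10.2, the NLH mice at 9.53, 8.90, 12.1 and 7.27 and the LH mice at 9.33, 11.5, 8.48 and 5.83. The 4 groups overlapped, and both the highest mouse (NLH 3) and the lowest (LH 4) had been through induction. On the deposited scale the standard deviation was 0.775 in HC and 0.972 in Ctrl beside 2.01 in NLH and 2.34 in LH. The level of Prox1 followed the log2 size factor at r = 0.74, and the part of library scale in these spreads was not tested. LH differed from Ctrl by -0.17 ± 0.18 (SE) with a 95% confidence interval from -0.55 to 0.21 and an adjusted p = 0.760. The row ENSMUST00000175916.7 held 85.8% of the named level.

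C1ql2, a secreted C1q-like protein of mossy fibre synapses, lies at chr1:120340582-120343174 on the plus strand and had 1 row. The HC mice were at 4.58, 4.21, 4.25 and 3.50 FPKM, the Ctrl mice at 4.02, 3.81, 4.20 and 4.69, the NLH mice at 3.85, 3.18, 4.92 and 3.23 and the LH mice at 3.24, 4.68, 2.81 and 2.46. Of the LH mice 3 lay below every Ctrl mouse, while LH 2 lay just under the highest Ctrl mouse. The group means were 4.14 ± 0.456 (SD, n = 4), 4.18 ± 0.376, 3.80 ± 0.810 and 3.30 ± 0.976. The difference of LH from Ctrl was -0.37 ± 0.18 (adjusted p = 0.455), with an interval from -0.76 to 0.02.

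Dsp codes for desmoplakin, a desmosomal linker protein that marks granule cells in the adult brain, and lies at chr13:38151294-38198577 on the plus strand. Its sum ranged from 2.95 to 3.86 FPKM among HC mice, 3.18 to 3.91 among Ctrl mice, 2.25 to 4.40 among NLH mice and 2.32 to 3.19 among LH mice. LH differed from Ctrl by -0.29 ± 0.18 (adjusted p = 0.576) and NLH from Ctrl by -0.26 ± 0.18 (adjusted p = 0.982). The exact permutation test of LH against Ctrl gave p = 0.0571, and the smallest that 4 mice against 4 allow is 0.0286. Calb1, the calcium buffer calbindin of granule cells and of part of the CA1 pyramidal cells, lies at chr4:15881264-15908064 on the plus strand. It ranged from 10.5 to 13.0 FPKM among HC mice, 11.9 to 14.4 among Ctrl mice, 10.1 to 17.8 among NLH mice and 11.0 to 18.0 among LH mice. The mean went from 11.6 ± 1.01 in HC to 14.4 ± 3.50 in LH (SD), and LH against Ctrl gave 0.13 ± 0.17 (adjusted p = 0.812).

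Man1a, a Golgi mannosidase that trims N-linked glycans, had the smallest p-value of the members. It lies at chr10:53904785-54076609 on the minus strand. The HC mice were at 9.22, 10.5, 9.38 and 9.14 FPKM, the Ctrl mice at 8.28, 8.20, 9.25 and 8.48, the NLH mice at 11.3, 8.61, 8.11 and 7.29 and the LH mice at 12.9, 12.3, 12.5 and 9.15. LH mice 1, 2 and 3 lay above all 12 other mice, and LH 4 lay within the Ctrl range, so the groups overlapped. The LH mean was 1.37 times that of Ctrl and 1.33 times that of NLH. The difference was 0.44 ± 0.13 from Ctrl (adjusted p = 0.216) and 0.41 ± 0.13 from NLH (adjusted p = 0.489), and the exact permutation test gave p = 0.0571 for both. Without LH 4 the adjusted p from Ctrl became 0.0486 with a difference of 0.55, and without LH 3 and 4 it was 0.0362 with 0.56. Over all alternatives it ran from 0.0362 to 0.493.

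Fibcd1, an acetyl-group-binding membrane receptor used as a marker of dorsal CA1, lies at chr2:31813290-31846005 on the minus strand and had 1 row. The HC mice were at 9.26, 8.50, 7.22 and 9.40 FPKM, the Ctrl mice at 6.80, 10.1, 9.36 and 9.30, the NLH mice at 7.88, 9.08, 9.44 and 6.75 and the LH mice at 8.54, 12.4, 6.25 and 5.05. Both the highest and the lowest of the 16 mice were in LH. On the deposited scale its coefficient of variation was 39.9% in LH beside 11.6% in HC, 16.2% in Ctrl and 14.8% in NLH. Fibcd1 followed the log2 size factor at r = 0.80, and the part of library scale in this spread was not tested. LH against Ctrl gave -0.21 ± 0.22 (adjusted p = 0.755), and without LH 4 LH against NLH turned from -0.11 to 0.08.

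Wfs1 codes for wolframin, a membrane protein of the endoplasmic reticulum, and lies at chr5:36966104-36989205 on the minus strand. The 2 rows with its name were at 0.754, 2.68, 2.34 and 1.94 FPKM in HC, 1.43, 1.07, 1.26 and 0.625 in Ctrl, 1.66, 1.19, 4.71 and 2.32 in NLH, and in LH at 1.48 and 1.55 in mice 1 and 2, 0.194 in mouse 3 and 0.0023 in mouse 4. The groups overlapped. LH differed from NLH by -2.10 ± 0.71 (adjusted p = 0.520). Without LH 4 the difference was -1.31, and without LH 3 and 4 it was -0.49. With 1 or 0.01 in place of 0.1 added to the FPKM it was -0.97 or -2.97, and none of these passed the threshold. The value also rested on the rows that carry the name, since an assembled transcript without a gene name at the same locus held 78.8% of the FPKM of the locus.

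Summed over all rows of the locus, an alternative chosen after the values were seen, the HC mice were at 7.20, 7.78, 7.97 and 6.85 FPKM, the Ctrl mice at 9.28, 8.57, 7.55 and 7.48, the NLH mice at 7.84, 9.89, 7.57 and 8.34 and the LH mice at 10.4, 8.79, 7.74 and 5.15. The coefficient of variation over the 16 mice was then 15.4% in place of 71.2%. The LH and NLH means were 8.02 ± 2.20 and 8.41 ± 1.04 (SD), with a log2 difference of -0.11 ± 0.16 (adjusted p = 0.905). The named rows held from 0.0437% of the locus in LH 4 to 62.3% in NLH 3. For the other members the named rows held most of the locus.

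**Figure D3:**
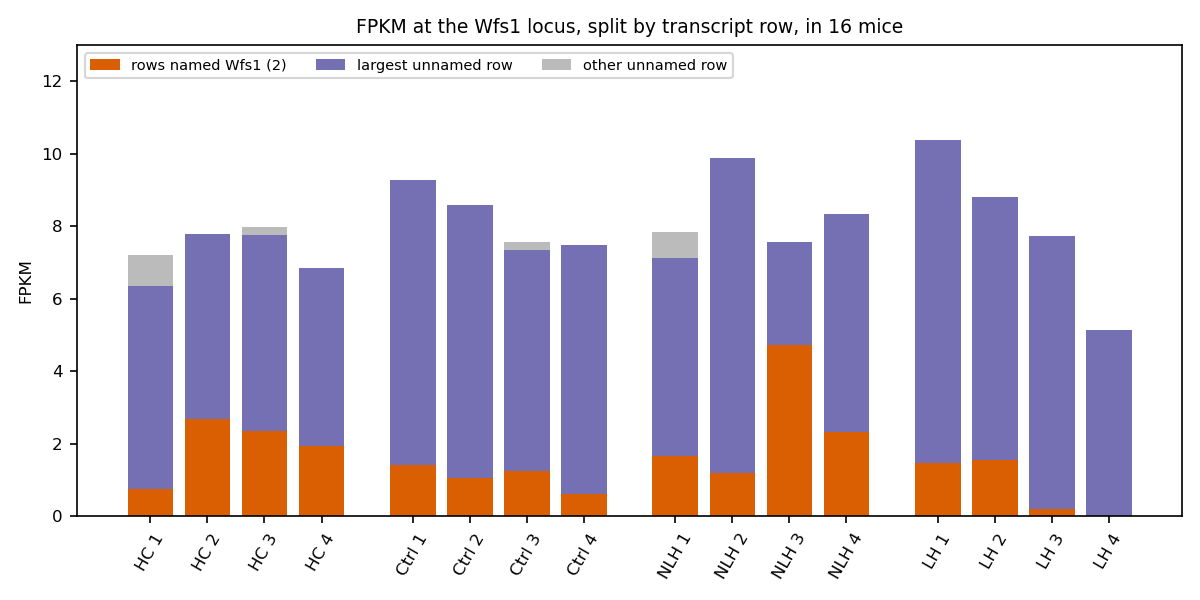
FPKM at the Wfs1 locus (vertical axis) in each of the 16 mice, stacked by transcript row. The named rows (orange) run from 0.0023 FPKM in LH 4 to 4.71 in NLH 3, whereas the whole bar runs only from 5.15 in LH 4 to 10.4 in LH 1.

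Amigo2, an adhesion protein with leucine-rich repeats that marks CA2 and part of CA3, lies at chr15:97244125-97247287 on the minus strand and had 1 named row. The HC mice were at 2.69, 1.95, 1.92 and 2.18 FPKM, the Ctrl mice at 2.19, 2.65, 1.95 and 2.60, the NLH mice at 1.45, 2.68, 2.80 and 2.33 and the LH mice at 2.20, 3.28, 1.61 and 1.04. As for Fibcd1, LH 2 was the highest and LH 4 the lowest mouse. LH against Ctrl gave -0.30 ± 0.28 (adjusted p = 0.715). Bok, a member of the Bcl-2 family, lies at chr1:93685660-93695764 on the plus strand. It ranged from 5.64 to 8.07 FPKM among HC mice, 5.82 to 7.07 among Ctrl mice, 5.56 to 7.00 among NLH mice and 3.46 to 7.92 among LH mice. LH against Ctrl gave -0.18 ± 0.21 (adjusted p = 0.782).

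Pcp4, a small calmodulin-binding protein used as a CA2 marker that is also made in thalamus, striatum and deep cortex, lies at chr16:96467606-96525793 on the plus strand. The HC mice were at 11.6, 10.8, 14.5 and 14.3 FPKM, the Ctrl mice at 14.9, 15.4, 16.4 and 14.6, the NLH mice at 11.6, 20.1, 13.6 and 21.0 and the LH mice at 22.7, 13.6, 17.2 and 19.7. As deposited, every Ctrl mouse lay above every HC mouse, and 3 mice (NLH 2, NLH 4 and LH 1) stood above 20 FPKM. This was 1 of 10 members without overlap in Ctrl vs. HC, where 5.24% of all genes did not overlap. In LH vs. Ctrl, LH vs. NLH and NLH vs. Ctrl 0 of 10 members were free of overlap, beside 5.59%, 2.11% and 6.04% of all genes. Ctrl exceeded HC by 0.27 ± 0.19 (adjusted p = 1 by limma, exact permutation p = 0.0286). The unadjusted limma p was 0.173, and after size factors it was 0.279 with a difference of 0.24 ± 0.21. LH exceeded Ctrl by 0.23 ± 0.19 (adjusted p = 0.671), and by 0.12 without LH 1.

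Markers of neighbouring tissue were high as deposited in some of the mice with high Pcp4 and not in others. The summed FPKM of 5 thalamus markers was 29.2 in LH 1 and 10.1 to 13.8 in the other 15 mice, with Prkcd at 10.3 in LH 1. The sum of 6 subiculum and cortex markers was highest in NLH 4 (36.0), LH 1 (33.8) and NLH 2 (31.5), and ranged from 24.0 to 27.7 in HC and Ctrl. LH 4, whose Pcp4 was 19.7, had the lowest such sum of all as deposited (22.6) and a thalamus sum of 12.0. Divided by the size factors, a scale added after the values were seen and on which LH 4 has the lowest factor, its sums were 27.8 for subiculum and cortex, within the 24.4 to 27.8 of HC and Ctrl, and 14.7 for thalamus, above the 10.4 to 13.1 of HC and Ctrl and below LH 1 at 25.5 alone. On that scale the subiculum and cortex sum was 37.0 in NLH 4, 29.4 in LH 1 and 28.8 in NLH 2, and 29.2 in both NLH 1 and LH 3. Single striatum markers went both ways in LH 4. It had the highest level of the receptor Drd1 (1.41 FPKM, against 0.764 to 1.35 in the other mice) and of Penk (0.730). It had the lowest level of Ppp1r1b (4.19), Rgs9 (0.859) and Drd2 (0). The sum of 8 striatum markers ranged from 13.1 to 25.1, with LH 2 highest and LH 4 at 14.6. After size factors LH 4 was at 17.9, within the 14.6 to 19.2 of HC and Ctrl. The defining striatal genes Drd2 and Adora2a stayed at or below 0.601 and 0.163 FPKM. The part of neighbouring tissue in the Pcp4 levels was not tested.

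Single transcript rows were examined as the study did, by rows. Limma on 80137 rows called 0 of the 20 member rows in LH vs. Ctrl (0.0462% of all rows called), LH vs. NLH (0.0412%), NLH vs. Ctrl (0.0125%) and Ctrl vs. HC (0.00374%). At an unadjusted p under 0.05 it counted 2 member rows in LH vs. Ctrl (10.7% of all rows), 4 in LH vs. NLH (8.72%), 1 in NLH vs. Ctrl (5.12%) and 0 in Ctrl vs. HC (3.45%). The methods' t-test on FPKM, at an unadjusted p under 0.05, called 2 of 20 member rows in LH vs. Ctrl (7.69% of rows), 0 in LH vs. NLH (4.47%), 1 in NLH vs. Ctrl (7.2%) and 2 in Ctrl vs. HC (6.68%), which are near the shares of all rows. After Benjamini-Hochberg adjustment that test called 0 in each.

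The rows called by the methods' test were these. The main Dsp row ENSMUST00000127906.7 was lower in LH (2.32 ± 0.113, SD) than in Ctrl (2.81 ± 0.304), with an unadjusted p of 0.0228. The main Man1a row ENSMUST00000003843.14 was higher in LH (9.73 ± 2.12) than in Ctrl (6.89 ± 0.611), with an unadjusted p of 0.0418. The short Calb1 row ENSMUST00000136266.1, annotated as a retained intron, was at 0.471 ± 0.313 in NLH and 0.0403 ± 0.0805 in Ctrl (unadjusted p of 0.0373). These low levels correspond to a median of 1 estimated fragment per mouse. In Ctrl vs. HC the Pcp4 row was higher (unadjusted p of 0.0488), and the Man1a retained-intron row ENSMUST00000133330.1 fell from 0.615 ± 0.0774 to 0.441 ± 0.0534 (unadjusted p of 0.010). The limma adjusted p of these 5 rows was 0.617, 0.387, 0.733, 1 and 1 in the order given.

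Across the 16 mice the markers tended to rise and fall together on the deposited scale, both within and between subfields. Pearson's r on log2(FPKM + 0.1) was positive for 9 of the 12 pairs within a subfield (median 0.41) and 23 of the 33 pairs between subfields (median 0.41). The medians of Spearman's rho were 0.29 and 0.26. With the group means removed the medians of r were 0.56 and 0.52. These values are descriptions with no test, and the genes of a pair share each library, its depth and its scale. After median-ratio size factors the medians were 0.15 and 0.08, and without LH 3 and 4 they were 0.25 and 0.15. With Pcp4 and Wfs1 left out, the medians within and between subfields were 0.60 and 0.48 as deposited. They were then 0.41 and 0.22 after size factors, and 0.47 and 0.30 without LH 3 and 4. The level of Fibcd1 correlated with the log2 size factor at r = 0.80, Amigo2 at 0.77 and Prox1 at 0.74, whereas Pcp4 was at 0.03.

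**Figure D4:**
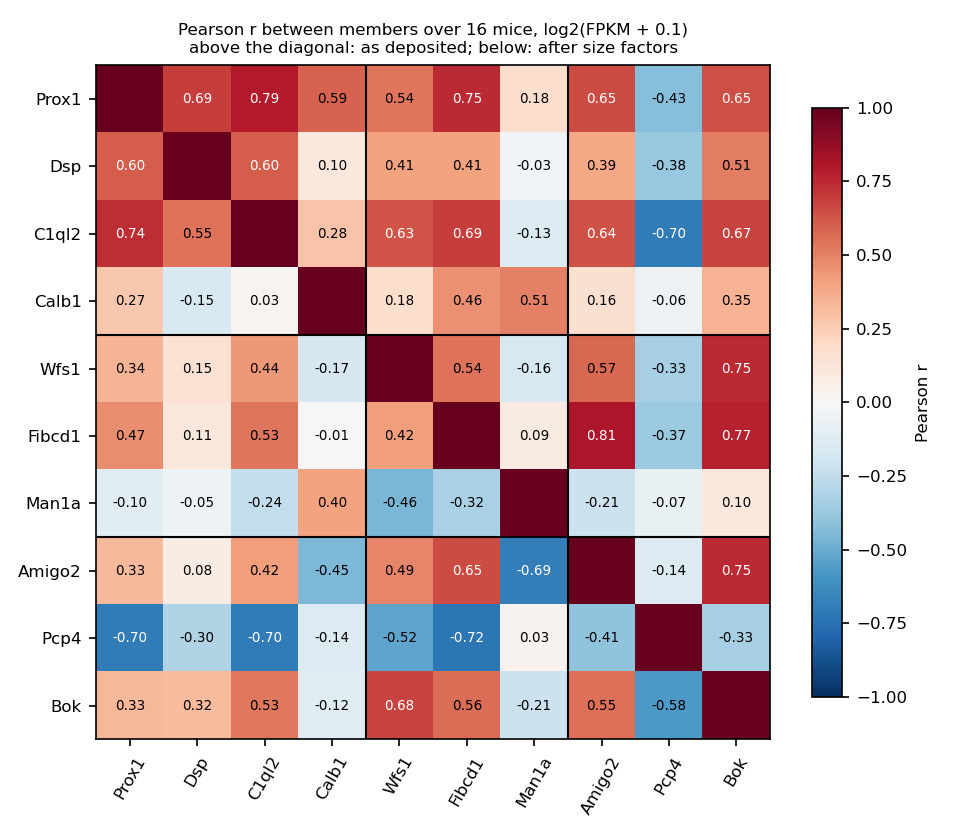
Pearson r between members over the 16 mice (colour and number), with the values as deposited above the diagonal and after size factors below it. Lines separate the dentate, CA1 and CA2 and CA3 members. The Pcp4 row and column are negative above the diagonal throughout, and most other pairs are positive there.

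The highest r on the deposited scale was that of Fibcd1 with Amigo2, a CA1 and a CA2 and CA3 marker, at 0.81 with rho = 0.69. Without the 2 mice farthest from the Fibcd1 median r was 0.60, after size factors 0.65 and with the group means removed 0.80. The next was the dentate pair Prox1 with C1ql2 at r = 0.79 and rho = 0.71. Their r was 0.88 with the group means removed, 0.74 after size factors and 0.60 without the 2 farthest mice, so the order of these pairs changed with the scale. After size factors Wfs1 with Bok, at 0.68, also lay above Fibcd1 with Amigo2, but as deposited its r of 0.75 was 0.13 without LH 3 and 4, and rho was 0.29. Dsp joined this pair, at r = 0.69 with Prox1 and 0.60 with C1ql2, and Calb1 was at 0.59 with Prox1 (rho = 0.75), 0.28 with C1ql2 and 0.10 with Dsp. With the group means removed these 3 values of Calb1 were 0.67, 0.61 and 0.25, and after size factors 0.27, 0.030 and -0.15. Within CA1, Man1a was at 0.087 with Fibcd1 and -0.16 with Wfs1, at 0.38 with each once the group means were removed, and at -0.32 and -0.46 after size factors.

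Pcp4 ran opposite to C1ql2 on each scale tried. As deposited its r was negative with 9 of 9 members, from -0.70 with C1ql2 to -0.073 with Man1a and -0.061 with Calb1. It was negative with 8 of 9 after size factors, where Fibcd1 (-0.72) and Prox1 (-0.70) were as low as C1ql2, and with 7 of 9 without LH 3 and 4, where Amigo2 was at 0.17 and Calb1 at 0.025. With C1ql2 the value was -0.70 by Pearson and -0.70 by Spearman. It was -0.70 without the 2 mice farthest from the C1ql2 median, -0.65 with the group means removed, -0.70 after size factors and -0.70 without LH 1. The ratio of Pcp4 to C1ql2, in which library scale cancels, was 2.53 to 4.10 among HC mice, 3.12 to 4.04 among Ctrl mice, 2.76 to 6.49 among NLH mice and 2.90 to 8.01 among LH mice. The 5 highest ratios were 6.14 to 8.01 in LH 1, LH 3 and LH 4 and 6.32 and 6.49 in NLH 2 and NLH 4, while LH 2, NLH 1 and NLH 3 lay among the HC and Ctrl mice. Of these 5 mice, NLH 4, LH 1 and NLH 2 had the highest subiculum and cortex sums as deposited, and LH 3 and LH 4 are the libraries with the most rows at 0 (10846 and 15504). The pair was chosen for its low r, and the part of tissue and of library in the ratio was not tested.

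**Figure D5:**
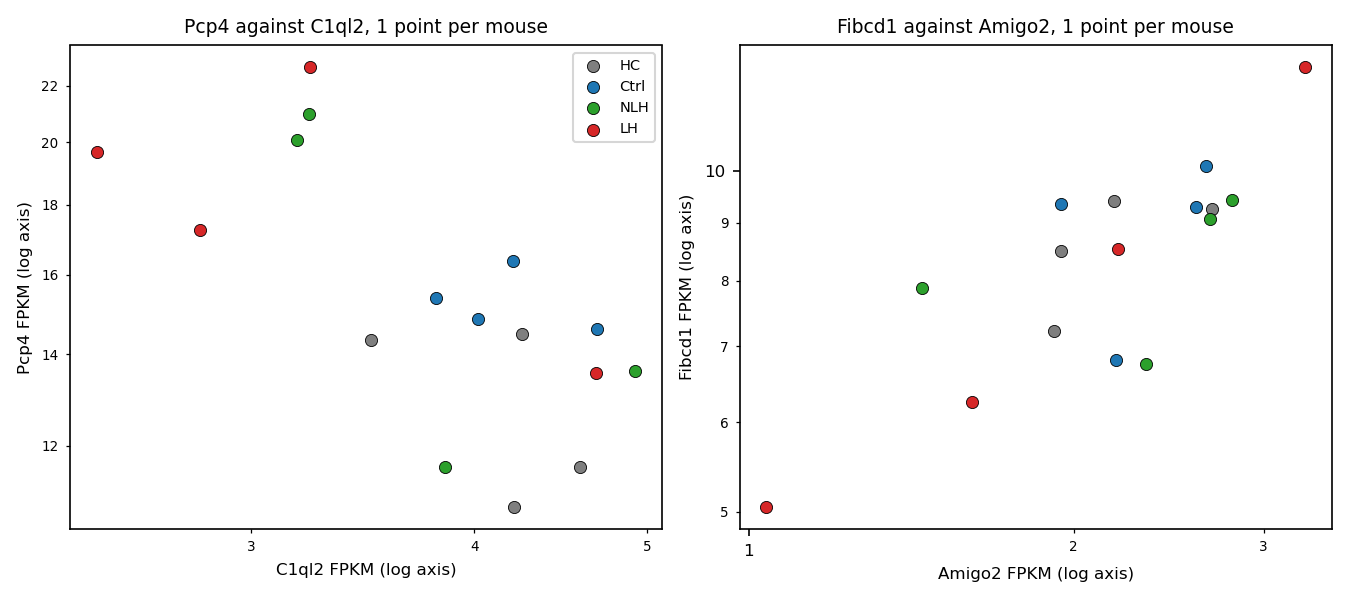
FPKM of Pcp4 against C1ql2 (left) and of Fibcd1 against Amigo2 (right) on log axes, 1 point per mouse coloured by group. Pcp4 is high where C1ql2 is low, with LH 4 at 19.7 and 2.46, and Fibcd1 rises with Amigo2 from LH 4 at the lower left to LH 2 at the upper right.

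The sum of the dentate members over that of the CA1 members was 1.38 ± 0.147 for HC mice, 1.64 ± 0.148 for Ctrl mice, 1.53 ± 0.112 for NLH mice and 1.44 ± 0.106 for LH mice (SD). Summed over all rows of the loci the means were 1.18, 1.28, 1.29 and 1.16, with SDs from 0.0814 to 0.204. On named rows the Ctrl mice (1.43 to 1.77) overlapped the HC mice (1.26 to 1.58) and the LH mice (1.35 to 1.58), and these differences were not tested. The ratio of dentate to CA2 and CA3 members ran from 0.790 in NLH 4 to 1.82 in NLH 1. Its group means lay between 1.13 and 1.29.

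The genes whose levels were most like a member's, among 10426 other genes with a mean of at least 1 FPKM, were Cblb (r = 0.93) and Il1rap (0.92) for Prox1, Snhg12 (0.79) and Jph1 (0.79) for Dsp, Fam118b (0.87) and Slc12a9 (0.86) for C1ql2, and Abce1 (0.92) and Rgs5 (0.92) for Calb1. For the CA1 markers they were Sdad1 (0.90) and Ralyl (0.90) for Wfs1, Nmnat2 (0.96) and Ykt6 (0.96) for Fibcd1, and Rab27b (0.92) and Ndfip2 (0.90) for Man1a. For CA2 and CA3 they were Mpi (0.95) and Mrpl41 (0.94) for Amigo2, Dusp14 (0.84) and Cckbr (0.80) for Pcp4, and Adprm (0.95) and Plrg1 (0.92) for Bok. The median r over all those genes was itself 0.46 for Fibcd1, 0.45 for Amigo2 and 0.43 for Prox1, but 0.01 for Pcp4 and 0.12 for Man1a. All are over 16 mice and on the deposited scale. After size factors the 20 values ran from 0.57 to 0.92, with Fibcd1 and Ykt6 at 0.57 and Dsp and Snhg12 at 0.64.

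Other markers of the same fields, from lists that are not members, were likewise not called by limma with adjustment in any comparison. At an unadjusted p under 0.05, 1 of 14 other dentate markers was lower in LH vs. Ctrl (11.5% of all genes passed), 2 were lower in LH vs. NLH (7.54%), 1 was lower in NLH vs. Ctrl (5.59%) and 1 was higher in Ctrl vs. HC (2.7%). Of 8 other CA1 markers 1 was higher in LH vs. Ctrl and 0 passed in the other comparisons, and of 11 other CA2 and CA3 markers 1 was higher in LH vs. Ctrl and 1 lower in Ctrl vs. HC. Their median log2 differences in LH vs. Ctrl were -0.17, -0.04 and -0.02. The most abundant were the C1q-like C1ql3 (17.7 ± 1.91 FPKM, SD over 16 mice) and the SNARE regulator Stxbp6 (15.5 ± 3.49) for the dentate gyrus, the metallophosphoesterase Mpped1 (27.8 ± 4.98) and the matricellular protein Nov (13.3 ± 2.46) for CA1, and the calcium-binding Necab2 (9.48 ± 1.92) and the RGS protein Rgs14 (7.92 ± 1.39) for CA2 and CA3. The sum of the other dentate markers correlated with Prox1 at r = 0.91, C1ql2 at 0.81, Dsp at 0.75 and Calb1 at 0.51. With markers of other fields it was 0.79 with Fibcd1, 0.77 with Bok, 0.67 with Amigo2, 0.57 with Wfs1, 0.24 with Man1a and -0.45 with Pcp4.

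Lists for other cells were also without a gene called by limma with adjustment. These were mossy and hilar cells (5 genes), excitatory neurons (5), interneurons (5), astrocytes (5) and oligodendrocytes (6). At an unadjusted p under 0.05 in LH vs. Ctrl, which 11.5% of all genes passed, 1 mossy and hilar gene was higher, 1 excitatory gene was higher and 1 lower, 1 interneuron gene was higher and 0 astrocyte or oligodendrocyte genes passed. Of 8 striatum markers 2 were higher, of 5 thalamus markers 1 was higher, and 0 of 6 subiculum and cortex and 0 of 7 choroid plexus markers passed. The summed FPKM of the excitatory list, led by Camk2a (252 ± 31.7) and Slc17a7 (134 ± 17.7), ranged from 372 in LH 4 to 583 in LH 2, and it correlated with Fibcd1 at r = 0.90 and Amigo2 at 0.82. The interneuron list, led by Sst (51.8 ± 10.3) and Gad1 (41.6 ± 4.25), ranged from 98.0 to 153. The astrocyte list, led by Aldoc (93.6 ± 14.6) and Slc1a3 (59.7 ± 7.40), ranged from 147 to 259 and the oligodendrocyte list, led by Mbp (256 ± 38.7) and Mobp (98.6 ± 15.2), from 267 to 520. The mossy and hilar list, led by Ociad2 (12.5 ± 2.21) and Calb2 (6.60 ± 2.15), ranged from 13.7 to 31.6. As deposited, LH 4 was the lowest mouse in 6 of 10 members and in the excitatory, astrocyte and oligodendrocyte sums alike. It is the library with the lowest size factor, and after size factors it was the lowest in 5 of 10 members. These list sums are given on the deposited scale only. The part of library scale and of cell composition in the levels of LH 4 was not tested.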

How the data were processed

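Hippocampal RNA of 16 mice was sequenced by the authors from total RNA. According to the labels reads were aligned to mm10 with STAR 2.42a, whereas the paper's methods name HISAT2, so the aligner is uncertain. Transcripts were assembled with StringTie 1.2.3 and merged over all samples, and the deposited values are FPKM per transcript made by the authors with Cufflinks. Read counts were not used here, and the kit's strand setting is not given in the sources used here. An Igsf5 isoform on the same strand runs through Pcp4 and has a row of its own (0.189% of the locus).

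FPKM were summed over the rows of a gene name. Gene sums and rows were tested with limma 3.58.1 (R 4.3.3, trend and robust) on log2(FPKM + 0.1), without a filter, with the 4 groups in 1 fit and Benjamini-Hochberg adjustment over all features. The methods' t-test on FPKM per row was run as the study did, with unadjusted p. Exact permutation tests were two-sided (scipy 1.17.1). Depth was estimated from FPKM steps of loci with 1 transcript over 2000 bases, assuming fragments of 200 bases. The tests were checked on simulated data. Coordinates are from GENCODE vM21. Dsp, Man1a and Amigo2 each have a row whose identifier version was not matched there.

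The members and lists were chosen with earlier results of these data known. All members are named, with rows that hold most of a gene or were called, the 2 genes most like each member, and the 2 most abundant genes of each list. Each mouse is 1 library, and 4 per group limit the precision. In the labels the replicate numbers only name mice. The alternatives were other added values, scalings, filters, row choices, a replicate block and leaving out mice.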

Additional observations from a re-analysis of the deposited data

Results flagged for a closer look

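Dsp in HC mouse 2 was at 3.86 FPKM, while the other HC mice were between 2.95 and 3.03. It stood apart by a gap of 0.908 of the group's range, above Dixon's critical value for 4 values. This was 1 of 40 combinations of gene and group looked at, and chance flags about 1 in 20.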

How the results depend on the processing

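The counts of called members on gene sums were 0 under most alternatives. Percentages are the share of all features called at the same setting. Exceptions in LH vs. Ctrl were 1 at an unadjusted p (11.5%), 1 without LH replicates 3 and 4 (Man1a, 5.41%, against 0% with all mice), 0 to 1 with 1 mouse left out (Man1a without LH 4, 1.04%) and 2 (Dsp and Man1a) by the methods' t-test on FPKM (8.01%), in LH vs. NLH 2 at an unadjusted p (7.54%), and in Ctrl vs. HC 2 (Man1a and Pcp4) by that test (8.5%). For rows by limma an unadjusted p gave 2 in LH vs. Ctrl (10.7%), 4 in LH vs. NLH (8.72%) and 1 in NLH vs. Ctrl (5.12%). Apart from the settings with 1 mouse left out, the log2 differences kept their sign in 374 of 400 alternative values and were reversed in 26. Of these values 1 passed the threshold, Man1a in LH vs. Ctrl without LH 3 and 4.

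Rows called by the methods' t-test changed more. In LH vs. Ctrl the 2 became 0 after Benjamini-Hochberg adjustment (0.00885%), 1 with unequal variances (5.71%), 1 with a replicate block (5.29%) and 1 to 4 with 1 mouse left out (5.77% to 10.1%, with 4 without LH 2 at 8.87%). In LH vs. NLH the 0 became 1 on log2(FPKM + 0.1) (4.98%), 3 with the replicate block (3.68%) and 0 to 1 with 1 mouse left out (3.18% to 5.46%). In NLH vs. Ctrl the 1 became 0 after adjustment (0.00379%), with unequal variances (5.52%), at a mean FPKM of at least 1 (12.7%) and with the replicate block (5.86%), and 0 to 2 with 1 mouse left out (5.62% to 8.48%). In Ctrl vs. HC the 2 became 0 after adjustment (0.00126%) and with the replicate block (5.08%), 1 with unequal variances (5.22%), on log2(FPKM + 0.1) (6.97%), at a mean FPKM of at least 1 (11.3%) and after size factors (6.59%), and 1 to 3 with 1 mouse left out (5.49% to 6.4%). The median correlation of same-numbered deviations was -0.02 over 24 pairs, 3 of which were over 0.1. Those 3 were all of mice numbered 2, at 0.14 (Ctrl with NLH), 0.12 (Ctrl with LH) and 0.11 (NLH with LH). Whether mice of the same number share a step of processing was not tested. The block changed no call on gene sums. The cause of these changes was not tested.

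The differences that reversed were these. With size factors Dsp in LH vs. NLH was 0.011, Man1a and Pcp4 in NLH vs. Ctrl -0.050 and -0.0080, and C1ql2 in Ctrl vs. HC -0.011. With each library set to the same summed FPKM Man1a, Pcp4 and C1ql2 were -0.043, -0.0014 and -0.014 in the same comparisons. Without LH 3 and 4 the LH vs. Ctrl differences became 0.20 (Amigo2), 0.30 (Bok), 0.22 (Fibcd1), 0.11 (Prox1) and 0.49 (Wfs1), and the LH vs. NLH differences 0.25 (Amigo2), 0.35 (Bok), 0.057 (C1ql2), 0.056 (Dsp), 0.32 (Fibcd1) and 0.15 (Prox1). The largest row alone gave Dsp 0.12 and Prox1 0.044 in LH vs. NLH and Bok 0.00017 in Ctrl vs. HC. All rows of the locus gave Dsp 0.015 in LH vs. NLH, Amigo2 0.10 and Man1a -0.027 in NLH vs. Ctrl, and Amigo2 -0.0092 and Wfs1 0.14 (from -0.69 on named rows) in Ctrl vs. HC. With 1 mouse left out the ranges that crossed 0 were, in LH vs. Ctrl, Bok -0.36 to 0.032 and Prox1 -0.31 to 0.012, and in LH vs. NLH Amigo2 -0.51 to 0.012, Bok -0.31 to 0.079, Calb1 -0.085 to 0.18, Dsp -0.16 to 0.15, Fibcd1 -0.34 to 0.083 and Prox1 -0.26 to 0.058. In NLH vs. Ctrl they were Amigo2 -0.15 to 0.15, Bok -0.12 to 0.013, Calb1 -0.051 to 0.22, Man1a -0.097 to 0.11, Pcp4 -0.058 to 0.23 and Prox1 -0.17 to 0.071, and in Ctrl vs. HC Bok -0.11 to 0.056, C1ql2 -0.059 to 0.067 and Fibcd1 -0.040 to 0.16.

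The median r moved from 0.41 to 0.24 on FPKM, 0.15 with size factors, 0.25 without LH 3 and 4 and 0.56 with group means removed within subfields, and from 0.41 to 0.078, 0.15 and 0.52 by the last 3 between subfields.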

Other observations

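Choroid plexus, which lies against the hippocampus in the ventricle and makes transthyretin, was present in uneven amounts. The summed FPKM of 7 choroid plexus markers was 95.9 in LH 2, 67.2 in NLH 3 and 64.5 in LH 1, but 3.36 in HC 2, 4.43 in NLH 4 and 2.65 in LH 4, and lay between 18.3 and 54.0 in the other 10 mice. It was led by Ttr (12.4 ± 11 FPKM, SD) and Kl (6.71 ± 4.42). Its log2 level correlated with Prox1 at r = 0.68, Fibcd1 at 0.62 and Calb1 at 0.60 over the 16 mice, and with Pcp4 at -0.09. These are descriptions over mice that share library scale, and the part of choroid plexus in the marker levels was not tested.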
